A study of Mus musculus with 24 samples.

Results

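Stromal cells of mouse bone marrow profiled in vivo were compared with stromal cells grown in culture. The comparison takes 6 of the 24 libraries of a series on marrow endothelium and stroma, chosen by title alone: 3 titled as stroma in vivo and 3 titled as stroma with the name Akt1 and without the mark of the co-culture series. Both groups hold polyA RNA from C57BL/6J mice with no genotype given beyond the strain, and the other 18 libraries are endothelium in vivo and in culture and a second culture series of both cell types, alone or with hematopoietic stem and progenitor cells (HSPC). All cultured libraries of the series carry Akt1 in the title, and the labels do not say what was done with this kinase, which relays insulin and growth factor signals. They also give no age, culture time, isolation method or sort. The setting, the Akt1 name and any difference in isolation or preparation therefore cannot be told apart in what follows. Nothing states that replicates came from separate mice or cultures, so that p-values reflect how far these libraries vary, which may be technical in part.

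The stroma of the marrow is the connective tissue around its vessels and along its bone. Its perivascular cells carry the leptin receptor and release Cxcl12 and Kitl, the chemokine and growth factor that hold and feed blood stem cells. Cells of the same lineage form osteoblasts, which lay down and mineralise bone matrix, and fat cells, while chondrocytes make the cartilage of the growth plate. Stromal cells put on plastic divide, flatten and deposit matrix, and are the usual feeder layer for blood cells in vitro.

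Levels are FPKM (sequenced fragments scaled to transcript length and to library size), a length-corrected unit, as the authors deposited them for 23879 gene symbols. Values of a group are given in the order of replicates 1 to 3. Differences are on the log2(FPKM + 1) scale, in vivo minus culture, with their standard error from limma, so that 1 is about a doubling for a well-expressed gene and more than that for a low one. A gene was called at an adjusted p under 0.05 over all 14904 tested genes. In these bulk samples fewer cells of a type and less RNA per cell cannot be told apart.

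The 3 libraries in vivo were alike, with correlations of 0.990 to 0.992. Correlations were taken across genes of at least 1 FPKM in at least 3 of all 24 libraries, and genes are not independent replicates. Cultured replicates 2 and 3 correlated at 0.987, but cultured replicate 1 reached only 0.922 with replicate 2 and 0.914 with replicate 3. Libraries in vivo correlated with cultured ones at 0.725 to 0.779. Xist, which coats and silences an X chromosome in females, was 0.370, 0.610 and 0.440 FPKM in vivo, against 1.40, 1.83 and 1006 FPKM in culture. Among genes of the Y chromosome, Uty, Kdm5d, Ddx3y and Eif2s3y were at 0 in cultured replicate 3 alone. Cultured replicate 3 thus has the pattern of female cells and the other 5 libraries that of male cells, so that the cultured libraries do not all come from 1 animal.

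Of 14904 tested genes, 8256 (55.4%) differed, 3575 (24% of those tested) higher and 4681 (31.4%) lower in vivo. The 3 libraries in vivo all lay above the 3 cultured ones for 4279 genes (28.7%) and all below for 5770 (38.7%). The median difference over all tested genes was -0.15. Trimmed-mean scaling, a rescaling of the libraries to the middle of their ratios, moved that median to 0.04 and gave 4413 genes higher and 3453 lower, so that the share of calls higher in vivo was 56.1% in place of 43.3%. Small differences therefore depend on the scaling, and of the called genes 4991 differed by at least 2-fold, 2654 higher and 2337 lower. These shares are the background for every count of a gene list below. The lists hold textbook genes of a pathway or cell type, and a member was tested if it reached 1 FPKM in at least 3 of 12 libraries, 6 of stroma and 6 of endothelium. A member at 0 in every cultured stromal library could not be called lower in vivo, which fixes its direction in the counts.

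**Figure D1:**
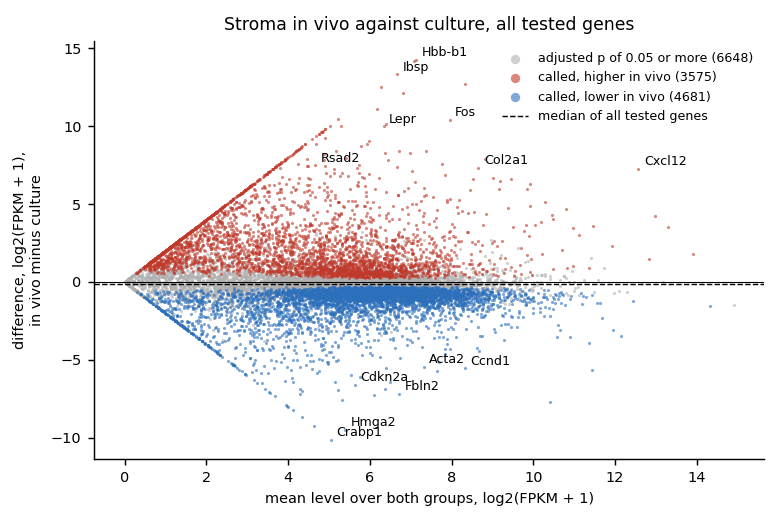
Difference between stroma in vivo and in culture (vertical axis, log2(FPKM + 1)) against the mean level of both groups (horizontal axis, log2(FPKM + 1)) for the 14904 tested genes, with the 3575 genes called higher in vivo in red, the 4681 called lower in blue and the rest in grey. The dashed line is the median of -0.15, and the straight upper and lower edges hold genes listed at 0 throughout 1 of the groups.

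**Figure D2:**
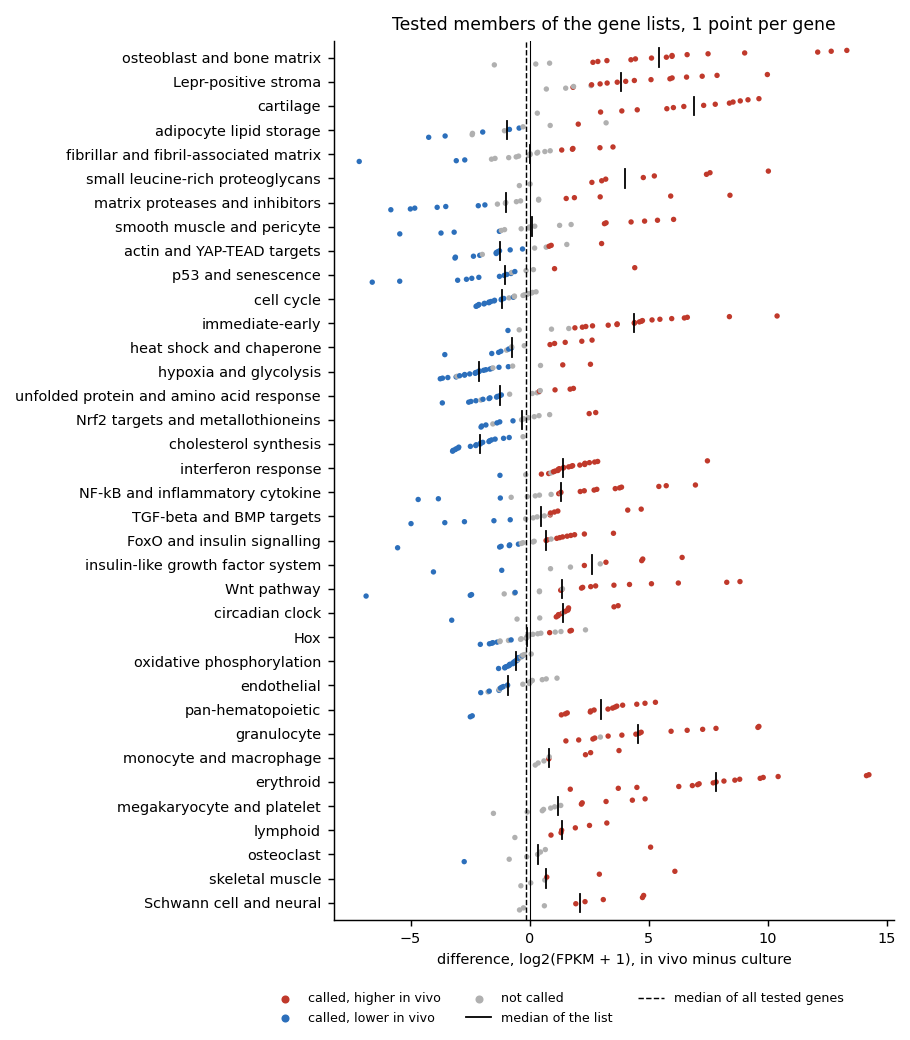
Differences of the tested members of 36 gene lists (horizontal axis, log2(FPKM + 1), in vivo minus culture), 1 point per gene, with a bar at the median of each list. Bone, cartilage, immediate-early and erythroid genes lie to the right of the dashed median of all genes, and glycolysis and cholesterol synthesis genes to its left.

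Genes of the niche stroma were higher in vivo. Of 18 genes of leptin receptor-positive stroma, all tested, 14 were called higher and 0 lower, and all 18 had every library in vivo above every cultured one. The list's median difference was 3.86, and its summed level was 110368 to 124325 FPKM in vivo and 2509 to 4993 FPKM in culture. The chemokine gene Cxcl12 stood at 78598, 69149.9 and 77753 FPKM in vivo and at 152, 925 and 837 FPKM in culture, a difference of 7.25 ± 0.92, adjusted p = 9.44e-05. It was among the most abundant transcripts in vivo, and the lowest of the cultured values was that of replicate 1. Lepr, the leptin receptor that names these cells, reached 2789, 2469.97 and 2499 FPKM in vivo and 15.3, 0 and 0 FPKM in culture (9.99 ± 1.06, adjusted p = 2.59e-05), where replicates 2 and 3 list none. The fat hormone gene Adipoq stood at 2897, 2489.9 and 2706 FPKM in vivo and at 1.60, 260.4 and 134 FPKM in culture (5.90 ± 1.32, adjusted p = 0.00368), again with replicate 1 the lowest.

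The stem cell factor gene Kitl changed less, with 1582, 1409 and 1468 FPKM in vivo and 185, 298 and 259.6 FPKM in culture (2.61 ± 0.31, adjusted p = 5.49e-05), and the 2 groups did not overlap. Ebf3, a transcription factor of the same cells, reached 1499, 1376 and 1316 FPKM in vivo and 23.1, 54.7 and 49.0 FPKM in culture (5.10 ± 0.36, adjusted p = 1.49e-06). The lymphoid growth factor gene Il7 stood at 178, 155 and 153 FPKM in vivo and at 18.8, 3.93 and 3.67 FPKM in culture (4.40 ± 0.54, adjusted p = 7.98e-05). Foxc1, a transcription factor required for these cells, and Vcam1, an adhesion molecule, rose as well, by 2.96 ± 0.17 and 3.26 ± 0.51. The members that missed the threshold were Grem1, Ebf1, Lpl and Angpt1. Angpt1, a ligand of the Tie2 receptor, came nearest at 209, 188 and 222 FPKM in vivo and 75.0, 59.9 and 80.3 FPKM in culture (1.52 ± 0.60, adjusted p = 0.0525, and 0.0269 under trimmed-mean scaling). Lpl, which encodes lipoprotein lipase, stood at 722, 651 and 752 FPKM in vivo and at 10.3, 522 and 279.8 FPKM in culture (2.58 ± 1.15, adjusted p = 0.08), the cultured values spreading widely. Without cultured replicate 2 it was called, at adjusted p = 0.0210 for Lpl.

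Bone genes were far higher in vivo and supplied 3 of the 8 largest rises among all genes. Of 18 osteoblast and bone matrix genes, 15 were called higher in vivo and 0 lower, with a median of 5.44. Ibsp, a sialoprotein that nucleates bone mineral, stood at 10021, 9373 and 11634 FPKM in vivo and was listed at 0 in all 3 cultured libraries (adjusted p = 7.81e-10). The osteocalcin gene Bglap stood at 19574, 30911 and 28652 FPKM in vivo and at 0, 5.33 and 8.80 FPKM in culture (12.67 ± 0.77, adjusted p = 4.57e-07), and it shares reads with its near copy Bglap2. The groups lay orders of magnitude apart in both cases. Sp7, a transcription factor that osteoblasts need, reached 322, 394 and 375 FPKM in vivo and 0, 12.1 and 13.4 FPKM in culture (5.99 ± 0.84, adjusted p = 0.000185). Runx2, which acts before Sp7, was present in both settings, at 329, 357 and 312 FPKM in vivo and at 58.2, 47.7 and 49.4 FPKM in culture (2.66 ± 0.18, adjusted p = 9.09e-07). The alkaline phosphatase gene Alpl stood at 603, 699 and 884 FPKM in vivo and at 0, 7.80 and 6.17 FPKM in culture (7.50 ± 0.69, adjusted p = 9.89e-06).

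Spp1, Dmp1 and Sost did not pass. The osteopontin gene Spp1 stood at 15079.8, 20140.2 and 20388 FPKM in vivo and at 16154, 92019.5 and 90377 FPKM in culture (-1.48 ± 0.65, adjusted p = 0.0749), where replicates 2 and 3 lay above every library in vivo and replicate 1 within their range. Dmp1, an osteocyte matrix gene, had 211, 339 and 367 FPKM in vivo and 39.8, 495 and 761 FPKM in culture (0.26 ± 0.86, adjusted p = 0.825), and replicates 2 and 3 were again the high ones. Without cultured replicate 1 both were called lower in vivo, Spp1 at -2.31 (adjusted p = 0.00180) and Dmp1 at -1.04 (adjusted p = 0.0178). Sost, the osteocyte inhibitor of Wnt signalling, was at most 1.98 FPKM in vivo and listed at 0 in culture. Markers of the osteoclast, the cell that resorbs bone, gave 1 gene higher and 1 lower of 7 tested, with Calcr, Ocstamp and Dcstamp too low to test. The acid phosphatase gene Acp5 rose to 41.7, 55.0 and 46.5 FPKM in vivo, against 0, 1.90 and 0 FPKM in culture (5.09 ± 0.40, adjusted p = 2.99e-06). The proton pump gene Atp6v0d2 fell to 0.680, 0 and 0.680 FPKM in vivo, against 2.28, 13.0 and 17.5 FPKM in culture (-2.75 ± 0.52, adjusted p = 0.00137).

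Cartilage genes were called higher in vivo for 13 of 14, with a median of 6.90. The cartilage collagen gene Col2a1 stood at 4579, 3809 and 7569 FPKM in vivo and at 258, 9.16 and 11.4 FPKM in culture (7.32 ± 1.06, adjusted p = 0.000233), with cultured replicate 1 the highest of its group. The aggrecan gene Acan, at 576, 408 and 821 FPKM in vivo, and the matrilin gene Matn3, at 293, 265 and 489 FPKM in vivo, were listed at 0 in all 3 cultured libraries (adjusted p = 3.13e-08 for Acan and adjusted p = 1.26e-09 for Matn3). In vivo, replicate 3 was the highest and replicate 2 the lowest library for each of these 3 genes, and the list's summed level was 7568 to 15186 FPKM there and 204 to 427 FPKM in culture. Genes of the hypertrophic zone, where cartilage gives way to bone, followed, with Col10a1 at 116, 109.5 and 252 FPKM in vivo and 0.500, 6.28 and 23.6 FPKM in culture (4.52 ± 0.78, adjusted p = 0.000749) and the hedgehog ligand gene Ihh at 12.2, 10.6 and 19.6 FPKM in vivo and listed at 0 in culture (adjusted p = 4.78e-07). Sox9, the master factor of cartilage, was the member that did not pass, at 124, 89.3 and 148 FPKM in vivo and 40.2, 158 and 129 FPKM in culture (0.33 ± 0.46, adjusted p = 0.58).

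Blood cell transcripts accompanied these genes in the libraries in vivo. All 17 tested erythroid genes were called higher in vivo, and their summed level was 41380.5 to 50138 FPKM in vivo, which is 2.30% to 2.93% of a library, and 64.2 to 258 FPKM in culture. In each cultured library 13 or 14 of them were at 0. The globin genes Hbb-b1, at 22491, 18168 and 18429 FPKM in vivo, and Hba-a1, at 20804, 17162 and 17050.2 FPKM in vivo, were listed at 0 in culture (adjusted p = 8.81e-10 for Hbb-b1 and adjusted p = 7.81e-10 for Hba-a1), and each shares reads with near copies. Nuclear red cell factors were present as well, with Gata1 at 69.0, 86.2 and 74.3 FPKM and Klf1 at 113, 124 and 104 FPKM in vivo and both listed at 0 in culture. Granulocyte genes were higher for 15 of 16 tested, with a summed level of 1771 to 3877 FPKM in vivo and 0 to 54.1 FPKM in culture. Of the 18 in that list, 16 to 18 were at 0 in each cultured library, so that few could have been called lower. S100a8, an alarmin of neutrophils, stood at 1279, 568 and 633 FPKM in vivo, replicate 1 being the highest, and at 0 in culture (adjusted p = 1.17e-07).

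Markers of other blood cells and tissues differed in both directions. Of 16 genes shared by most blood cells, 14 were called higher in vivo and 2 lower, and Ptprc, the leukocyte antigen CD45, stood at 7.42, 3.77 and 4.02 FPKM in vivo and at 0 in culture (adjusted p = 4.78e-05). Of those 16, 10 or 11 were at 0 in each cultured library, which limits how many could have been called lower. Their summed level went the other way, at 312 to 410 FPKM in vivo and 517 to 1388 FPKM in culture. The 2 lower ones were Arhgdib, at 164, 136 and 144 FPKM in vivo and 1344, 470.4 and 919 FPKM in culture (-2.49 ± 0.37, adjusted p = 0.000298), and Cd53, at 9.24, 3.68 and 3.97 FPKM in vivo and 39.8, 40.2 and 20.2 FPKM in culture (-2.41 ± 0.79, adjusted p = 0.025), which missed the threshold without replicate 2 or 3 in vivo or without cultured replicate 1 or 2 (adjusted p = 0.0628 to 0.0779 for Cd53). Of 15 monocyte and macrophage markers 8 were tested and 4 called, all higher, while C1qa, C1qb, C1qc, Fcgr1, Cx3cr1 and Aif1 were listed at 0 in all 6 libraries. Megakaryocyte genes were higher for 5 of 12, most of all in replicate 3 in vivo, where the platelet factor gene Pf4 stood at 12.4, 10.5 and 50.6 FPKM against 0 in culture (adjusted p = 0.000362). The summed level of that list overlapped, at 82.7, 73.3 and 296 FPKM in vivo and 21.3, 188 and 199 FPKM in culture. Lymphoid genes were higher for 6 of 7 tested, of 14 in the list, at no more than the 7.64, 8.15 and 9.81 FPKM in vivo of the class II gene H2-Ab1. Of those 14, 13 or 14 were at 0 in each cultured library, so that few could have been called lower. Of 20 endothelial markers 7 were called lower in vivo and 0 higher, beside 31.4% lower and 24% higher among all tested genes. Their summed level was 138 to 164 FPKM in vivo and 152 to 471 FPKM in culture. Most were detected, with 3 to 6 of the 20 at 0 in each library in vivo and 2 to 5 in each cultured one. Cldn5 and Robo4 were at 0 in all 6 libraries. The cadherin gene Cdh5 stood at 0.610, 0.430 and 1.69 FPKM in vivo and 2.89, 3.85 and 3.74 FPKM in culture. Egfl7, a secreted factor of vessels, was higher in culture, at 5.90, 5.07 and 6.31 FPKM in vivo and 28.6, 20.6 and 33.1 FPKM in culture (-2.05 ± 0.17, adjusted p = 3.93e-06). Schwann cell genes were higher for 5 of 8 tested, among them S100b, which chondrocytes also express, at 152, 132 and 153 FPKM in vivo and 4.25, 28.8 and 31.1 FPKM in culture (3.10 ± 0.65, adjusted p = 0.00249). Muscle genes were higher for 3 of 6 tested, with the fast troponin gene Tnni2 at 57.8, 58.5 and 92.4 FPKM in vivo and 0 in culture (adjusted p = 3.82e-09). Leaving out any 1 library in vivo left 2 of 5 Schwann cell genes and 1 of 5 muscle genes, fewer being tested because a gene seen in those libraries alone then misses the filter. The part of blood, nerve and muscle transcripts in the other differences was not tested.

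**Figure D3:**
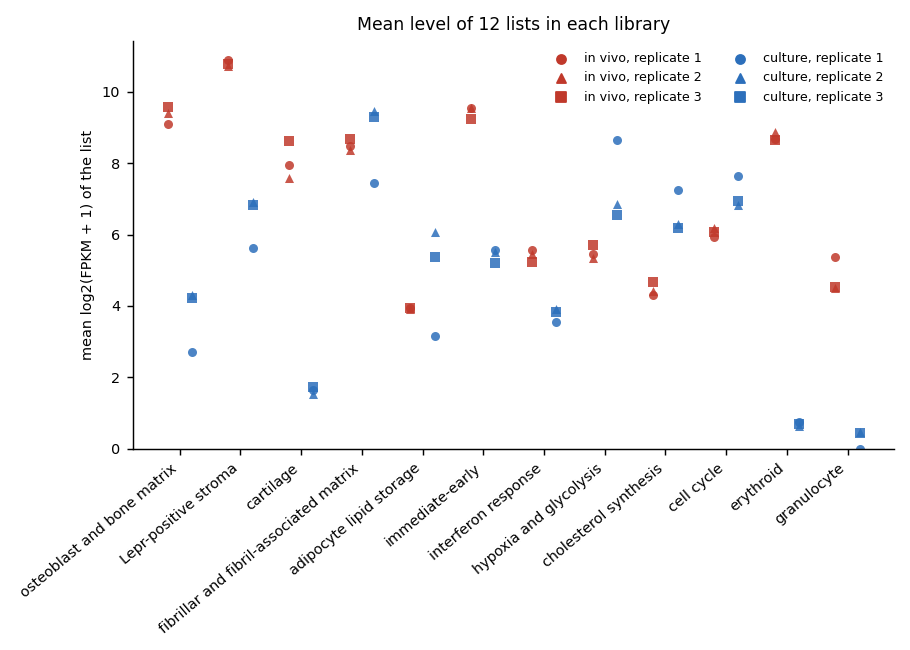
Mean log2(FPKM + 1) of 12 gene lists in each library in vivo (red, left of each pair) and in culture (blue, right), with the shape giving the replicate. Cultured replicate 1 (blue circle) lies apart from the other cultured libraries on bone, fibrillar matrix, adipocyte and glycolysis genes, and the erythroid and granulocyte lists are near 0 in culture.

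Structural matrix genes did not move as a group. Of 20 genes of fibrillar and fibril-associated matrix, 5 were called higher and 3 lower, beside 24% higher and 31.4% lower among all tested genes. The list's median of 0.02 became -0.97 without cultured replicate 1, and 3 were higher when any library other than cultured replicate 3 was left out. The type I collagen genes rose, Col1a1 to 28022, 38741 and 41002 FPKM in vivo, against 1322, 2458 and 1942 FPKM in culture (4.26 ± 0.39, adjusted p = 9.08e-06), and Col1a2 by 3.51 ± 0.43. The type III collagen gene Col3a1 stood at 323, 221 and 268 FPKM in vivo and at 252, 1514 and 1399.8 FPKM in culture (-1.60 ± 1.04, adjusted p = 0.215). Fn1, which encodes fibronectin, fell to 1025, 1416 and 1696 FPKM in vivo, against 2617, 23187 and 24517 FPKM in culture (-3.08 ± 0.74, adjusted p = 0.00538). Fbln2, a fibulin of elastic fibres, fell to 10.3, 4.84 and 9.30 FPKM in vivo, against 347, 2763 and 2061 FPKM in culture (-7.16 ± 0.64, adjusted p = 8.25e-06). In Col3a1, Fn1 and Fbln2 cultured replicate 1 was the lowest of its group by several fold.

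Small leucine-rich proteoglycans, which coat collagen fibrils and bind growth factors, were called higher for 8 of 10 tested with 0 lower and a median of 3.99. The decorin gene Dcn stood at 2518, 3207 and 3288 FPKM in vivo and at 2.70, 23.3 and 41.1 FPKM in culture (7.58 ± 0.71, adjusted p = 1.11e-05). Lum, the lumican gene, stood at 911, 1076 and 1172 FPKM in vivo and was listed at 0 in the 3 cultured libraries (adjusted p = 7.91e-10). Biglycan and asporin were the exceptions, Bgn at 9297, 8416 and 10025 FPKM in vivo and 4589, 12551 and 13001 FPKM in culture (0.02 ± 1.37, adjusted p = 1), with overlapping groups. The second culture series, which is given side by side without a test, had other levels: stroma alone had 696, 698 and 703 FPKM of Lum, 1329, 1358 and 1401 FPKM of Dcn and 28851, 25736 and 24811 FPKM of Col1a1. The periostin gene Postn stood at 159.8, 250.1 and 223 FPKM in vivo, 5.89, 533 and 404 FPKM in culture (0.87 ± 1.33, adjusted p = 0.61) and 10119, 10463 and 10825 FPKM in stroma alone. Low values of Lum and Dcn in the first cultures were thus not shared by the second.

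Matrix proteases and their inhibitors split, with 5 of 19 higher, 7 lower and a median of -1.0. Those counts are near the shares over all tested genes, 24% higher and 31.4% lower. Leaving out any library in vivo, or cultured replicate 2, left 3 higher, and the median was -0.16 without cultured replicate 2 and -0.19 without cultured replicate 3. The collagenase gene Mmp13, expressed by osteoblasts and late chondrocytes, stood at 2760.5, 3584 and 2988 FPKM in vivo and at 43.3, 4.94 and 1.80 FPKM in culture (8.42 ± 0.83, adjusted p = 1.59e-05). Plasminogen activators went the other way, with Plat at 4.53, 3.96 and 3.66 FPKM in vivo and 83.8, 219 and 228 FPKM in culture (-5.01 ± 0.32, adjusted p = 7.09e-07). The inhibitor gene Timp1 fell to 340.2, 388 and 675 FPKM in vivo, against 3839, 6814 and 5175 FPKM in culture (-3.52 ± 0.42, adjusted p = 5.81e-05).

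Fat cell genes spread widely among the cultures, and the direction of their counts depended on the setting. Of 12 tested members of 16, 1 was called higher in vivo and 5 lower, with a median of -0.95. Under trimmed-mean scaling 1 was higher and 1 lower, without cultured replicate 2 the counts were 3 and 2, without cultured replicate 3 they were 2 and 3, and without any 1 library in vivo 0 were higher and at most 2 lower. The member called higher was Cebpa, at 532, 471 and 535 FPKM in vivo and 26.5, 265 and 261 FPKM in culture (2.05 ± 0.75, adjusted p = 0.0395). The lipid droplet gene Plin4 fell to 4.59, 3.25 and 5.08 FPKM in vivo, against 20.4, 125 and 84.2 FPKM in culture (-3.55 ± 0.53, adjusted p = 0.000297). Fabp4, a fatty acid carrier, stood at 97.4, 118 and 144 FPKM in vivo and at 137, 1684 and 1064 FPKM in culture (-2.40 ± 1.60, adjusted p = 0.229), with cultured replicate 1 within the range in vivo and the other cultures far above. The fat cell regulator Pparg, at 106, 86.6 and 102 FPKM in vivo and 53.3, 178 and 175 FPKM in culture (-0.27 ± 0.84, adjusted p = 0.813), showed the same order among the cultures, with replicate 1 the lowest.

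Contractile and pericyte genes split. Of 18 smooth muscle and pericyte genes, 6 were called higher and 4 lower in vivo, beside 24% higher and 31.4% lower among all tested genes. The actin gene Acta2, a marker of smooth muscle and of activated fibroblasts, fell to 15.5, 25.4 and 31.1 FPKM in vivo, against 1468, 926 and 866 FPKM in culture (-5.45 ± 0.73, adjusted p = 0.000136), and the tropomyosin gene Tpm2 fell by 3.17 on the same scale. Pericyte channel genes were on the other side: Abcc9 and Kcnj8, the subunits of a potassium channel, stood at 63.9, 61.8 and 70.7 and at 6.67, 7.20 and 10.1 FPKM in vivo and were listed at 0 in culture (adjusted p = 7.91e-10 and adjusted p = 2.37e-07). Notch3, a receptor of mural cells, reached 453, 359 and 391 FPKM in vivo and 1.27, 30.8 and 37.3 FPKM in culture (4.83 ± 0.85, adjusted p = 0.000815). Pericyte genes were not all higher. Cspg4, also a pericyte marker, stood at 53.5, 51.2 and 83.5 FPKM in vivo and at 59.0, 248 and 224 FPKM in culture. It was called lower with overlapping groups (-1.27 ± 0.47, adjusted p = 0.0404, and 0.105 under trimmed-mean scaling). The muscle filament gene Des rose by 4.27 ± 0.38. Among 17 genes of the actin skeleton and of YAP and TEAD, which answer to stretch and spreading, 10 were lower and 3 higher. Vcl, which encodes the adhesion protein vinculin, fell to 183, 174 and 253 FPKM in vivo, against 508, 503 and 514 FPKM in culture (-1.34 ± 0.16, adjusted p = 6.69e-05). Cyr61, a secreted YAP target that is also an immediate-early gene, rose to 5926, 10076 and 4175 FPKM in vivo, against 1121, 638 and 641 FPKM in culture (3.03 ± 0.39, adjusted p = 9.99e-05).

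Most cell cycle genes, and most genes of growth arrest, were lower in vivo than in the first cultures. Of 25 cell cycle genes, 15 were called lower and 0 higher, with a median of -1.17. The mitotic kinase gene Cdk1 fell to 40.2, 48.9 and 44.4 FPKM in vivo, against 340.2, 163 and 177 FPKM in culture (-2.25 ± 0.25, adjusted p = 4.04e-05), and replicate 1 was the highest culture. The genes of the replication helicase, Mcm2 to Mcm7, did not pass. Of these, Mcm7 stood at 77.8, 90.0 and 81.4 FPKM in vivo and 93.5, 55.1 and 62.0 FPKM in culture (0.27 ± 0.20, adjusted p = 0.26), and it was called higher in vivo under trimmed-mean scaling (0.52, adjusted p = 0.0240), under quantile normalization (0.44, adjusted p = 0.0448) and without cultured replicate 1 (0.50, adjusted p = 0.0199). The cyclin gene Ccnd1, which growth factor signals induce, fell to 36.5, 45.8 and 57.0 FPKM in vivo, against 2232, 2339 and 1981 FPKM in culture (-5.54 ± 0.61, adjusted p = 3.3e-05). The second culture series did not share the high cell cycle levels, as values without a test. The list's summed level was 936 to 1117 FPKM in stroma alone, 2067 to 2477 FPKM in vivo and 3270 to 6075 FPKM in the first cultures. Ccnd1 stood at 276, 271 and 257 FPKM in stroma alone, above its levels in vivo. Red cell precursor genes, given above, were higher in these libraries in vivo, and their part in the cell cycle levels was not tested.

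Of 16 genes of p53 and senescence, 11 were lower and 2 higher in vivo, and 1 was higher when any 1 library was left out. Cdkn2a and Cdkn2b, the cell cycle inhibitors that accumulate as cells are passaged, were the largest falls. Cdkn2a stood at 2.49, 3.50 and 7.07 FPKM in vivo and at 365, 830.5 and 387 FPKM in culture (-6.61 ± 0.54, adjusted p = 4.25e-06). Cdkn2b stood at 2.87, 1.46 and 1.78 FPKM in vivo and at 128, 132 and 129 FPKM in culture (-5.46 ± 0.35, adjusted p = 7.2e-07). The p53 target Ccng1 fell to 92.0, 83.8 and 96.7 FPKM in vivo, against 1138, 532 and 677 FPKM in culture (-3.02 ± 0.37, adjusted p = 6.83e-05). Btg2, an antiproliferative p53 target that also answers within minutes to stimuli, rose to 610.3, 1064 and 619.6 FPKM in vivo, against 48.99, 23.98 and 31.96 FPKM in culture (4.42 ± 0.44, adjusted p = 1.62e-05).

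Immediate-early genes, which are switched on without new protein synthesis when a cell is stimulated, were among the strongest rises. Of 23 genes, 19 were called higher and 1 lower in vivo, with a median of 4.40 and a summed level of 34741 to 52212 FPKM in vivo, against 1542 to 2157 FPKM in culture. Fos, a subunit of the AP-1 factor, stood at 10411, 9263 and 7753 FPKM in vivo and at 7.07, 6.60 and 3.94 FPKM in culture (10.40 ± 0.25, adjusted p = 8.5e-10). Socs3, the feedback inhibitor of cytokine signals, stood at 5722, 2964 and 2842 FPKM in vivo and at 41.8, 31.6 and 34.6 FPKM in culture (6.63 ± 0.34, adjusted p = 1.19e-07). Zfp36, which destabilises cytokine mRNAs, stood at 6027, 6413 and 4325 FPKM in vivo and at 50.1, 62.2 and 68.2 FPKM in culture (6.50 ± 0.26, adjusted p = 2.01e-08). The groups were fully apart in all 3 genes. The nuclear receptor gene Nr4a1 reached 1041, 2370.2 and 777 FPKM in vivo and 48.7, 35.2 and 11.1 FPKM in culture (5.48 ± 0.56, adjusted p = 1.99e-05), whereas its relative Nr4a2 was the gene called lower, at 16.7, 23.1 and 19.4 FPKM in vivo and 45.4, 35.8 and 32.5 FPKM in culture (-0.91 ± 0.26, adjusted p = 0.0133, and 0.0536 without replicate 1 in vivo).

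Heat shock genes differed in both directions. Of 14, 5 were higher and 6 lower, and 2 were higher without replicate 1 or 2 in vivo and 3 without cultured replicate 2 or 3. The inducible chaperone gene Hspa1a rose to 139.9, 189 and 83.8 FPKM in vivo, against 16.2, 42.0 and 30.8 FPKM in culture (2.20 ± 0.39, adjusted p = 0.000916), and its cochaperone Dnajb1 to 626, 1349 and 495 FPKM, against 139, 116 and 108 FPKM in culture (2.63 ± 0.31, adjusted p = 5.65e-05). Replicate 2 was the highest library in vivo for both. The mitochondrial chaperone genes fell, with differences of -1.20 ± 0.29 for Hspd1 and -1.30 ± 0.27 for Hspe1, and the small chaperone gene Cryab fell to 66.5, 81.9 and 93.5 FPKM in vivo, against 2965, 618 and 473 FPKM in culture (-3.56 ± 0.65, adjusted p = 0.00104).

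Interferon-stimulated genes, the antiviral set that interferon switches on, were called higher in vivo for 21 of 25, with 1 lower and a median of 1.41. The differences were moderate except for Rsad2, which encodes viperin and stood at 291, 396 and 327 FPKM in vivo and 2.52, 0.920 and 0 FPKM in culture (7.47 ± 0.37, adjusted p = 8.82e-08). The ubiquitin-like modifier gene Isg15 stood at 194, 204 and 181 FPKM in vivo and at 23.1, 27.2 and 27.0 FPKM in culture (2.86 ± 0.27, adjusted p = 1.22e-05). Irf7, a transcription factor of the response, stood at 109.8, 91.5 and 85.2 FPKM in vivo and at 8.71, 21.4 and 20.7 FPKM in culture (2.52 ± 0.29, adjusted p = 4.37e-05). In these 3 genes every library in vivo lay above every cultured one. Ifit2 was the gene called lower, at 20.6, 20.5 and 20.3 FPKM in vivo and 75.2, 41.9 and 39.1 FPKM in culture (-1.24 ± 0.25, adjusted p = 0.0018), while its neighbours in the family Ifit1 and Ifit3 rose by 1.76 ± 0.34 and 0.80 ± 0.19.

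Promoters of the interferon list were searched for the interferon-stimulated response element, spelled here as a pair of GAAA with any 2 bases between them and read on both strands in the 250 bases before the annotated start. RefSeq promoters (GRCm38.p6) matched 18 of the 25 genes with 21 promoters, of which 9 (42.9%) held the motif, against 978 of 32851 promoters of all genes (2.98%). The 3 sequences are shown because they belong to members that rose and hold the motif, in capitals, 5′ to 3′ along the gene. Rsad2 lies at chr12:26456453-26456702 on the minus strand, Isg15 at chr4:156200819-156201068 on the minus strand and Ifit1 at chr19:34640639-34640888 on the plus strand.
Rsad2: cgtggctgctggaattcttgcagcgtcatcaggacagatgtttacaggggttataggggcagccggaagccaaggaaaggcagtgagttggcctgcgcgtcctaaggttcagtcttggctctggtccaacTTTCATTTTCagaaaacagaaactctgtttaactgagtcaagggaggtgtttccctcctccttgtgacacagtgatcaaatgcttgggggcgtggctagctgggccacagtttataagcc
Isg15: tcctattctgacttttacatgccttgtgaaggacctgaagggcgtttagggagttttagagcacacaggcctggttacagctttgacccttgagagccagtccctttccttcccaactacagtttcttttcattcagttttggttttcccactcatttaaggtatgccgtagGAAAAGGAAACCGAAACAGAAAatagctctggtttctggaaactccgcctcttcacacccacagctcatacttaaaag
Ifit1: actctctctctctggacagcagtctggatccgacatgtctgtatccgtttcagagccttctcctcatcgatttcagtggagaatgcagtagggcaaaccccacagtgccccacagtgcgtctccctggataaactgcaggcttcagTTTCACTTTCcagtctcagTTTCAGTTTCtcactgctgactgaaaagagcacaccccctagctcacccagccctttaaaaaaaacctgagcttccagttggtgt
The motif ends 110 bases before the start in Rsad2, 56 in Isg15, where 3 matches overlap in 1 run, and 75 in Ifit1, which holds 2. The motif is not found in the 2 promoters of Ifit2 or in that of Irf7, and it is found in that of Oas1a, at 14.0, 8.38 and 7.58 FPKM in vivo and 4.58, 4.73 and 4.83 FPKM in culture (0.90 ± 0.64, adjusted p = 0.26). A match describes letters in a window and does not show that a factor was bound. The list holds textbook genes of this response, so that its share of motifs describes the list and not the differences measured here.

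Genes of NF-kB and inflammatory cytokines were higher for 12 of 21 tested and lower for 3, with a median of 1.32. The feedback inhibitor Nfkbia stood at 637, 449 and 414 FPKM in vivo and at 92.6, 60.8 and 56.7 FPKM in culture (2.83 ± 0.29, adjusted p = 1.94e-05). Ptx3, a soluble pattern receptor, stood at 562, 522 and 731 FPKM in vivo and at 2.71, 7.13 and 2.63 FPKM in culture (6.97 ± 0.29, adjusted p = 2.44e-08), and the chemokine gene Cxcl10 rose by 5.74 ± 0.64. Without a test, stroma alone of the second culture series had 849, 827 and 881 FPKM of Ptx3 and 27.7, 34.9 and 21.2 FPKM of Cxcl10. The low Ptx3 of the first cultures was thus not shared by the second. The cyclooxygenase gene Ptgs2 fell to 9.44, 6.30 and 5.69 FPKM in vivo, against 160.3, 109.5 and 81.4 FPKM in culture (-3.83 ± 0.40, adjusted p = 2.29e-05). Il1rl1, the receptor of interleukin 33, fell to 11.1, 14.4 and 11.3 FPKM in vivo, against 755, 168 and 302 FPKM in culture (-4.68 ± 0.46, adjusted p = 1.63e-05).

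Glycolysis genes were lower in vivo. Of 25 genes of glycolysis and the hypoxia response, 19 were called lower and 2 higher, with a median of -2.12. The phosphoglycerate kinase gene Pgk1 fell to 24.6, 22.0 and 27.1 FPKM in vivo, against 1118, 198 and 148 FPKM in culture (-3.66 ± 0.61, adjusted p = 0.000588). The pyruvate kinase gene Pkm fell to 155, 158 and 196 FPKM in vivo, against 5059.8, 1767 and 1329.7 FPKM in culture (-3.75 ± 0.52, adjusted p = 0.000187). Slc16a3, which exports lactate, fell to 18.6, 12.2 and 15.4 FPKM in vivo, against 654, 106 and 76.0 FPKM in culture (-3.43 ± 0.79, adjusted p = 0.00419). Cultured replicate 1 was far above the other cultures in each, and its list mean was 8.64, 6.86 and 6.54 in replicates 1 to 3, against 5.46, 5.34 and 5.72 in vivo, on the log2(FPKM + 1) scale. Without that library 17 members were lower and 2 higher. Car9, a carbonic anhydrase that marks hypoxic cells, stood at 0, 1.07 and 0.860 FPKM in vivo and at 204, 2.52 and 2.05 FPKM in culture (-3.05 ± 1.42, adjusted p = 0.0918, and 0.0422 without cultured replicate 3). The 2 genes called higher were the angiogenic factor gene Vegfa, at 884, 777 and 707 FPKM in vivo and 244, 366 and 296 FPKM in culture (1.40 ± 0.50, adjusted p = 0.0369, and 0.0514 to 0.0975 when 1 library was left out), and Ndrg1, at 175, 126 and 248 FPKM in vivo and 89.3, 17.1 and 15.7 FPKM in culture (2.56 ± 0.58, adjusted p = 0.00401).

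The core of the element that hypoxia-inducible factor binds, ACGTG on either strand, was in 15 of 34 promoters (44.1%) of the 24 matched members, against 5444 of all 32851 (16.6%). It lies inside the E-box CACGTG wherever that occurs, and counts for both. Sequences follow for 2 members that fell and hold it, with the core in capitals, Pgk1 at chrX:106186850-106187099 on the plus strand and Egln3, the oxygen-sensing hydroxylase gene, at chr12:54203875-54204124 on the minus strand.
Pgk1: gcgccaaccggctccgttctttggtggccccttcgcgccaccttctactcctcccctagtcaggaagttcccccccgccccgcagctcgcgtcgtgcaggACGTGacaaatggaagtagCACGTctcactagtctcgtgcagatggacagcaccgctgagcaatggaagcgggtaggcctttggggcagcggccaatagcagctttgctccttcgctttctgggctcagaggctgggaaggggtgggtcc
Egln3: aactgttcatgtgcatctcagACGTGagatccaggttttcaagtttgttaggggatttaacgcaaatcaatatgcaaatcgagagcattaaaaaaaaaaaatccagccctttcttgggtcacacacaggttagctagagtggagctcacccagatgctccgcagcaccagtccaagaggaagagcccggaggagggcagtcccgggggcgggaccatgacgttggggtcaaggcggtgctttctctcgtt
Pgk1 holds 2 cores, 1 on each strand, and Egln3 holds 1. Egln3 stood at 1.28, 1.30 and 1.44 FPKM in vivo and at 48.2, 14.6 and 9.19 FPKM in culture (-3.09 ± 0.61, adjusted p = 0.00175). The core is also in a promoter of Vegfa, which rose, and in none of Gapdh, Tpi1 or Eno1, which fell. As with the interferon list, the share of motifs describes a list of textbook genes and not the differences measured here.

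Genes of cholesterol synthesis, driven by SREBP when cell sterol is low, were called lower in vivo for 18 of 19 tested, with 0 higher and a median of -2.07. Fdps, which makes farnesyl diphosphate, fell to 5.03, 5.79 and 10.5 FPKM in vivo, against 135, 56.6 and 46.7 FPKM in culture (-3.21 ± 0.45, adjusted p = 0.000176). All 18 called genes had the groups apart, and the exception was Pmvk, with overlapping groups.

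Respiratory chain genes were lower for 18 of 25 with 0 higher, by a median of -0.58, and for 11 of 25 under trimmed-mean scaling or quantile normalization. Cox7c fell to 49.0, 58.4 and 57.7 FPKM in vivo, against 163, 127 and 123 FPKM in culture (-1.30 ± 0.14, adjusted p = 3.17e-05). Of 21 genes of the unfolded protein and amino acid response, 11 were lower and 4 higher, with 2 higher without replicate 1 or 3 in vivo and 7 under quantile normalization. The serine synthesis gene Psat1 fell to 28.7, 31.4 and 38.1 FPKM in vivo, against 922, 345 and 239 FPKM in culture (-3.66 ± 0.42, adjusted p = 4.74e-05), and the endoplasmic reticulum gene Herpud1 rose to 534, 423 and 533 FPKM, against 143, 166 and 144 FPKM in culture (1.70 ± 0.19, adjusted p = 3.54e-05). Of 15 Nrf2 targets and metallothioneins, 6 were lower and 2 higher, with Prdx1, a peroxide-reducing enzyme, at 380.1, 381 and 438 FPKM in vivo and 1779, 1492 and 1560.4 FPKM in culture (-2.01 ± 0.18, adjusted p = 7.22e-06).

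The kinase gene named in the titles of the cultured libraries, Akt1, stood at 254, 234 and 284 FPKM in vivo and at 522, 698 and 637 FPKM in culture, a difference of -1.26 ± 0.24, adjusted p = 0.00144 (adjusted p = 0.0556 under quantile normalization). Its groups did not overlap. FPKM per gene does not tell a transcript of the cells' own gene from one of an introduced gene. Of 21 tested genes of insulin and FoxO signalling, 10 were higher and 6 lower. The 6 lower ones include Akt1 itself, Ccnd1, Sesn3 (-1.19 ± 0.34, adjusted p = 0.0132) and Igf1r (-0.85 ± 0.19, adjusted p = 0.00391). Klf15, which FoxO and glucocorticoids induce, stood at 58.7, 51.1 and 45.0 FPKM in vivo and at 1.44, 5.15 and 5.23 FPKM in culture (3.53 ± 0.36, adjusted p = 2.01e-05). Irs1, the docking protein of the insulin receptor, stood at 194, 147 and 162 FPKM in vivo and at 50.1, 52.2 and 45.8 FPKM in culture (1.73 ± 0.26, adjusted p = 0.000305). Txnip, which limits glucose uptake, stood at 1162, 1352 and 1153 FPKM in vivo and at 138, 372 and 290.3 FPKM in culture (2.30 ± 0.31, adjusted p = 0.000158). These 3 were higher in every library in vivo than in the cultures compared. Stroma alone of the second culture series, given without a test, had 2558, 2531 and 2524 FPKM of Txnip, above its levels in vivo. Klf15 stood there at 5.81, 5.55 and 5.87 FPKM and Irs1 at 68.4, 65.95 and 67.1 FPKM, below their levels in vivo.

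Insulin-like growth factor genes were higher for 5 of 10 and lower for 2, or for 1 without replicate 1 or 2 in vivo or cultured replicate 2 or 3. The protease gene Pappa, which frees the growth factor from its binding proteins, stood at 489, 484 and 471 FPKM in vivo and at 0.450, 10.8 and 9.71 FPKM in culture (6.41 ± 0.67, adjusted p = 2.29e-05). Its substrate gene Igfbp4 stood at 9743, 8324 and 9087 FPKM in vivo and at 604, 190.3 and 353 FPKM in culture (4.71 ± 0.38, adjusted p = 3.54e-06), and Igfbp5, another binding protein gene, at 7558, 6612 and 6492 FPKM in vivo and 70.1, 15.4 and 20.4 FPKM in culture (7.88 ± 1.29, adjusted p = 0.000538). Igfbp6 fell to 45.7, 17.4 and 29.4 FPKM in vivo, against 432, 614 and 435 FPKM in culture (-4.04 ± 0.44, adjusted p = 3.31e-05).

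Wnt pathway genes were called higher for 12 of 21 tested and lower for 4, their median being 1.38. Secreted antagonists led in both directions. Wif1, a Wnt binding inhibitor, stood at 422, 447 and 508 FPKM in vivo and was listed at 0 in culture (adjusted p = 1.63e-08), and Sfrp4 stood at 2354, 2001 and 2406 FPKM in vivo and at 2.38, 10.9 and 8.31 FPKM in culture (8.29 ± 0.46, adjusted p = 2.1e-07). Dkk2 fell to 0.980, 0.590 and 0.860 FPKM in vivo, against 636, 264 and 54.3 FPKM in culture (-6.87 ± 0.99, adjusted p = 0.000224). Among the ligands, Wnt4 stood at 116, 109 and 102 FPKM in vivo and at 2.00, 0 and 0 FPKM in culture (6.25 ± 0.39, adjusted p = 5.47e-07), and Wnt5a fell to 15.7, 18.0 and 16.7 FPKM in vivo, against 68.7, 131 and 108 FPKM in culture (-2.49 ± 0.50, adjusted p = 0.0019). The potentiator gene Rspo3 rose by 5.12 ± 0.68, from 0, 3.84 and 4.60 FPKM in culture to 102, 101 and 108 FPKM in vivo. Without a test, Rspo3 stood at 84.6, 90.6 and 88.45 FPKM in stroma alone of the second culture series. Wif1 was at 0 there and Sfrp4 at 14.4, 13.8 and 11.6 FPKM.

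Targets of TGF-beta and BMP were higher for 6 of 16 and lower for 5, beside 24% higher and 31.4% lower among all tested genes. The activin subunit gene Inhba fell to 5.91, 6.37 and 4.72 FPKM in vivo, against 164, 259.6 and 212 FPKM in culture (-4.98 ± 0.51, adjusted p = 2.12e-05), and the thrombospondin gene Thbs1 to 503, 476 and 922 FPKM, against 4519, 3609 and 4016 FPKM in culture (-2.74 ± 0.42, adjusted p = 0.000338). Id4, a helix-loop-helix inhibitor, rose to 611, 534 and 544 FPKM in vivo, against 23.6, 20.9 and 18.3 FPKM in culture (4.69 ± 0.52, adjusted p = 3.87e-05), while its relative Id1 fell to 209.5, 177 and 166 FPKM, against 847, 394 and 419 FPKM in culture (-1.50 ± 0.40, adjusted p = 0.00916).

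Clock genes were called higher for 10 of 14 and lower for 1, with a median of 1.40. The repressor gene Per1 stood at 309, 249 and 229 FPKM in vivo and at 17.8, 24.6 and 22.0 FPKM in culture (3.55 ± 0.18, adjusted p = 1.12e-07), and Per2 at 149.7, 109 and 122 FPKM in vivo and 11.8, 7.70 and 6.89 FPKM in culture (3.72 ± 0.30, adjusted p = 4.13e-06). The activator gene Arntl, whose cycle runs opposite to theirs, was the gene that fell, to 3.16, 4.51 and 5.35 FPKM in vivo, against 46.3, 53.2 and 50.1 FPKM in culture (-3.27 ± 0.18, adjusted p = 2.17e-07). The groups were apart in all 3, and each list of 3 libraries was narrow. The labels give no hour of collection, so that time of day cannot be told apart from the setting.

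Hox genes, which keep a record of position along the body, gave 3 higher and 6 lower of 27 tested. Their median was -0.11, and it turned to 0.11 under trimmed-mean scaling. Without cultured replicate 1, 10 were lower. Hoxa5 stood at 105, 102 and 79.2 FPKM in vivo and at 48.9, 20.1 and 20.6 FPKM in culture (1.76 ± 0.38, adjusted p = 0.00295), and Hoxd8 fell to 23.0, 17.8 and 21.4 FPKM in vivo, against 97.8, 43.5 and 75.3 FPKM in culture (-1.69 ± 0.39, adjusted p = 0.00454). The Hoxb genes differed among the cultures, as with Hoxb7 at 3.63, 3.65 and 2.89 FPKM in vivo and 0, 31.6 and 32.7 FPKM in culture (-1.24 ± 1.08, adjusted p = 0.358), which was called without cultured replicate 1 at -2.92 (adjusted p = 2.65e-05). All 8 Hoxb genes of the list, from Hoxb2 to Hoxb9, were listed at 0 in cultured replicate 1 and in the 3 libraries of stroma alone, while in cultured replicates 2 and 3 Hoxb2 to Hoxb8 were present.

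**Figure D4:**
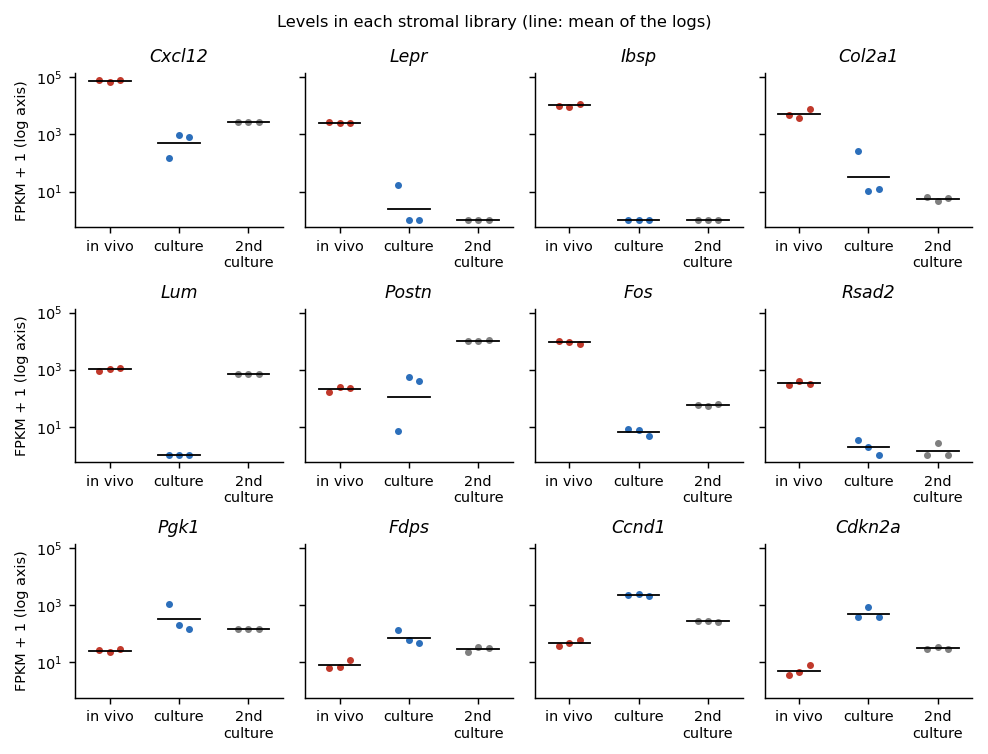
Level (vertical axis, FPKM + 1, log axis) of 12 genes in each library of stroma in vivo (red), the first culture (blue) and the second culture series alone (grey), 1 point per library in the order of replicates, with a line at the mean of the logs. Lum and Postn lie far higher in the second culture series than in the first, and Ibsp is at 0 in both.

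The largest falls among all genes were of transcripts nearly absent in vivo. Crabp1, a retinoic acid carrier, stood at 0, 0 and 0 FPKM in vivo and at 10432, 606 and 211 FPKM in culture (adjusted p = 6.37e-05). Hmga2, a chromatin protein of embryonic and growing cells, stood at 0.600, 0.570 and 0.570 FPKM in vivo and at 935, 1185 and 1289 FPKM in culture (adjusted p = 1.39e-08). The proliferin genes, prolactin relatives with near-identical copies that share reads, followed, with Prl2c2 at 0, 0 and 0 FPKM in vivo and 92.1, 3746 and 649 FPKM in culture (adjusted p = 0.00016). Slc5a7, a choline transporter of nerve endings, stood at 0, 0 and 0 FPKM in vivo and 45.7, 590.03 and 472 FPKM in culture (adjusted p = 1.17e-05), and Ptprn, a protein of secretory vesicles, at 0, 0 and 0 FPKM in vivo and 164, 311 and 282 FPKM in culture (adjusted p = 1.46e-05). Among the 8 largest rises, 4 were globins and 3 were Ibsp, Bglap and Bglap2, with Gdpd2, a phosphodiesterase of osteoblasts, at 3583, 3300.2 and 3314 FPKM in vivo and 1.03, 0.770 and 0 FPKM in culture (adjusted p = 5.95e-08).

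To see whether these changes were shared with marrow endothelium, which was profiled in the same settings, the stromal change was set against the endothelial one in the same fit. The 2 changes differed for 5000 of 14904 genes (33.5%). For Akt1 the difference between them was 0.58 ± 0.34, adjusted p = 0.218, with 445 ± 21.3 FPKM in endothelium in vivo, against 1672 ± 632 FPKM in cultured endothelium (SD, n = 3 each). Ibsp rose more in stroma, by 7.39 ± 0.41, adjusted p = 4.99e-07, and stood at 66.2 ± 36.5 FPKM in endothelium in vivo, against 0 ± 0 FPKM in cultured endothelium. Crabp1 fell more in stroma, by -6.88 ± 1.71, adjusted p = 0.011, and stood at 0 ± 0 FPKM in endothelium in vivo, against 13.4 ± 15.8 FPKM in cultured endothelium. Hmga2 was at 0.297 ± 0.263 FPKM in endothelium in vivo, against 78.4 ± 43.1 FPKM in cultured endothelium, and the stromal change was the larger (-3.68 ± 0.51, adjusted p = 0.000348). Of the 16 genes compared, the 14 whose changes differed all moved further in stroma. They were picked for the size of their stromal change, which favours that direction.

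**Figure D5:**
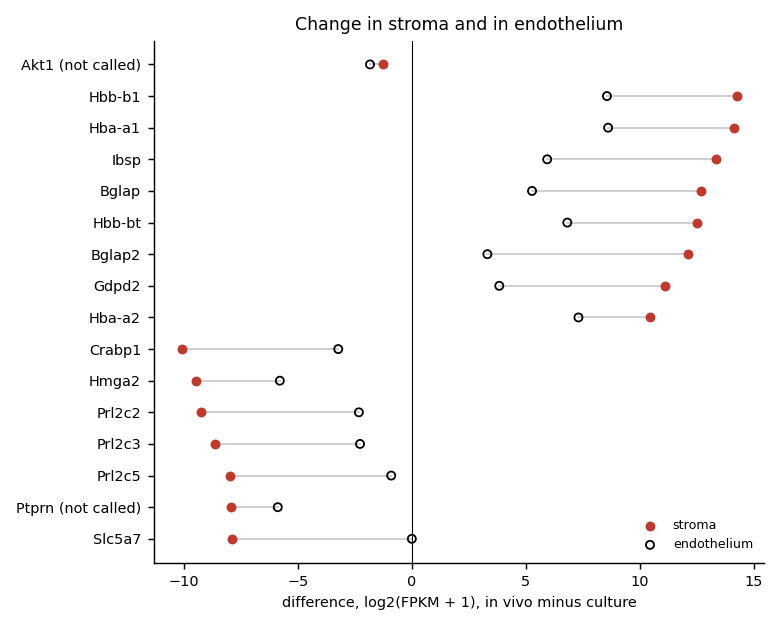
Difference between in vivo and culture (horizontal axis, log2(FPKM + 1)) in stroma (red) and in endothelium (open circles) for Akt1 and the 8 largest rises and 7 large falls in stroma, with "not called" at the 2 genes whose changes missed the threshold for a difference between cell types. The lines join the 2 cell types, and all 15 genes other than Akt1 lie further from 0 in stroma.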

How the data were processed

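RNA-seq libraries of C57BL/6J mouse marrow cells were analysed, with groups taken from the titles. The authors deposited 1 FPKM value per gene symbol and library, made with TopHat and Cufflinks on the mouse build mm9 per the submitters' processing notes, with versions not given in the sources used here. The 6 stromal libraries compared sum to 1677664 to 1798886 FPKM, higher than plain FPKM usually gives, so that a further scaling is possible but not stated. The FPKM values were used as deposited. Read depth is unknown, since the lowest values show no steps that single reads would leave (the fullest bin held 3.36% to 7.07% of values over 15 pairs of libraries), and precision is read from the spread of 3 libraries. Isoforms and reads were not used here.

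Log2(FPKM + 1) was modelled in R 4.3.3 by limma 3.58.1, using lmFit and then eBayes with its trend option, over 12 libraries in 4 groups, stroma and endothelium in vivo and in culture, which share 1 estimate of spread. Genes of at least 1 FPKM in at least 3 of these libraries were tested, and p-values were adjusted by Benjamini-Hochberg over all of them at 0.05. The files hold 639 of the 642 entries in 36 lists (Hmgcs1, Hbb-b2 and Ahsp were not matched). The comparison, its lists and its tests were chosen with earlier results of these data known, so that no list count stands as independent evidence.

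Genes were named by rule: Akt1; from called genes with groups apart and a higher mean of at least 5 FPKM, the 8 that rose most and the 8 that fell most; and at most 4 members called per list and direction. Clone names, microRNA, small nucleolar, immunoglobulin segment and histone cluster genes were left out, and further list members were named to describe a list. Some items the rule names are not reported here. Alternatives changed 1 choice at a time: the pseudocount (0.1), the filter (none, or 5 FPKM), the scaling (quantile, or a trimmed mean with trims of 0.3 and 0.05), the libraries fitted (6 stromal, or all 24), weights by group, a block for the replicate number, a 2-fold limit, and leaving out each of the 6 libraries. Promoters came from RefSeq (GRCm38.p6) by symbol, 250 bases before the start, and since this build differs from mm9 no coordinate of one was used with the other. Plots were made in matplotlib 3.10.9 (Python 3.11.15).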

Additional observations from a re-analysis of the deposited data

Results flagged for a closer look

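The change from culture to in vivo differed between stroma and endothelium for 14 of the 16 genes compared, by the test of the difference between the 2 changes in the same limma fit. The difference is the stromal change minus the endothelial change on the log2(FPKM + 1) scale, with its standard error. It was 5.69 ± 0.50, adjusted p = 1.27e-05 for Hbb-b1, 5.54 ± 0.36, adjusted p = 1.77e-06 for Hba-a1, 5.71 ± 0.70, adjusted p = 0.00015 for Hbb-bt and 3.13 ± 0.40, adjusted p = 0.000186 for Hba-a2 among the globin genes, whose endothelial levels were also higher in vivo by 8.56 for Hbb-b1, 8.62 for Hba-a1, 6.83 for Hbb-bt and 7.31 for Hba-a2 on that scale. Among bone genes it was 7.39 ± 0.41, adjusted p = 4.99e-07 for Ibsp, 7.40 ± 1.09, adjusted p = 0.000511 for Bglap, 8.79 ± 0.86, adjusted p = 2.91e-05 for Bglap2 and 7.28 ± 0.73, adjusted p = 3.67e-05 for Gdpd2. Among the falls it was -6.88 ± 1.71, adjusted p = 0.011 for Crabp1, -3.68 ± 0.51, adjusted p = 0.000348 for Hmga2 and -7.88 ± 1.05, adjusted p = 0.000264 for Slc5a7. Slc5a7 was at 0 in endothelium in vivo and in culture, so that its value only repeats the stromal fall. The proliferin genes gave -6.93 ± 1.79, adjusted p = 0.0132 for Prl2c2, -6.38 ± 1.24, adjusted p = 0.00286 for Prl2c3 and -7.09 ± 1.54, adjusted p = 0.0054 for Prl2c5. In endothelium these were at 0 in vivo, and their means in culture were only 8.61, 5.23 and 1.86 FPKM, so that little endothelial change could be seen. For Ptprn the difference between the changes was -2.05 ± 1.09, adjusted p = 0.177, which did not pass. The genes were chosen for a large stromal change, and reads shared among globins, among Bglap copies and among proliferins were not tested as a part of these values.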

How the results depend on the processing

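With a limit of 2-fold the count of called genes was 4991 and of genes lower in vivo 2337, and with all 24 libraries in the fit the stromal and endothelial changes differed for 7654 genes. Leaving out 1 library gave 6445 to 8368 called genes, 2705 to 3783 higher, 3740 to 4585 lower and 3627 to 6636 with a differing change. Other alternatives kept the 4 counts within 1.5 times. The numbers of the titles gave no sign of pairing (correlations of same-numbered deviations of -0.11, -0.05 and -0.07), and with the replicate block 8023 genes were called and 4639 changes differed. Of 230 called genes that could be named, 214 were tested under each of 15 alternatives, and 189 of these were called in the same direction under each. Signs turned for the called gene Acta1 under quantile normalization (-0.018, adjusted p = 0.970). Genes not called also turned. Leaving out 1 library gave -1.04 (adjusted p = 0.0178) to 1.07 for Dmp1, -1.16 to 1.98 for Postn, -0.27 to 0.70 for Sox9, -0.47 to 0.28 for Bgn and -0.52 to 0.21 for Pmvk, in each case turned without cultured replicate 1. Bgn also turned without replicate 3 in vivo (-0.038) and under quantile normalization (-0.42). Pparg ranged over -0.84 to 0.017, turned without cultured replicate 2 or 3 (0.0045). The cause of these turns was not tested. Depth is unknown, which limits what a value of 0 means.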

Other observations

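Levels in stroma cultured alone in the second set of cultures, which lies outside the 2 groups compared, are given as values without a test for 3 further genes chosen after their values were seen. Car9, a carbonic anhydrase gene known as a target of hypoxia-inducible factor, stood at 0, 1.07 and 0.860 FPKM in vivo, 204, 2.52 and 2.05 FPKM in the first cultures and 232, 229 and 222 FPKM in stroma cultured alone. Cultured replicate 1 of the first set was the one library of its group above 3 FPKM. Trib3, a pseudokinase gene of the amino acid response, stood at 1.19, 2.03 and 1.58 FPKM in vivo, 15.6, 16.8 and 8.70 FPKM in the first cultures and 252, 272 and 240.2 FPKM in stroma cultured alone. The 3 libraries of stroma cultured alone were all above both other groups for Trib3. Chac1, a glutathione-degrading enzyme gene of the same response, stood at 4.05, 3.27 and 4.49 FPKM in vivo, 30.4, 13.9 and 13.8 FPKM in the first cultures and 206, 212 and 202 FPKM in stroma cultured alone, again with no overlap between the 3 groups.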
